A study of Rattus norvegicus with 6 samples.

Results

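The genes of glucose transport, glycolysis, lactate and pyruvate handling and the pentose phosphate pathway were examined in CD11b+CD163+ macrophages sorted from ischemic and control rat brains. The set was a list of 36 gene symbols, and a gene counted as measured where a probe set of the array named it and no other gene. By this rule 34 of the 36 were measured, out of 14218 genes measured in all, and a gene with several such probe sets was represented by the one of highest mean over the 6 arrays. *Hk3* had no such probe set, and the probe set of *Pkm* also names a pseudogene, so neither has a value here.

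The ischemic group was rats 64, 65 and 66, whose right middle cerebral artery was occluded for 1 h and reperfused for 16 h, and the control group was the non-ischemic rats 63, 68 and 69. All 6 were adult male Sprague-Dawley rats without a transgene, and each array held RNA of the cells sorted from the right hemisphere of 1 rat. The sort collects border-associated macrophages, which sit around vessels and beneath the pia. Any other cell that carries both CD11b and CD163 would enter the same gate. The sort was also not entirely pure: the paper's flow cytometry check found a small share of granulocytes among the CD163+ cells sorted from ischemic brain. In RNA of a sorted pool, a change in the share of cells and a change in RNA per cell cannot be told apart.

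Values are log2 signals from the RMA procedure (robust multi-array average), so a difference between groups is a log2 fold change, always ischemia minus control. Signals of different probe sets are not comparable, and no gene's level is set against that of another. Of the 28 genes of other tissues measured, the 90th percentile of values lay at 7.24, and signals at or below it are called background. A gene was said to rise or fall at an adjusted p under 0.01 in limma's moderated linear model, a two-sided test with Benjamini-Hochberg adjustment across the 9929 genes above a low-signal filter. All 34 measured members passed that filter. *Pdk4* passed through the 3 controls and 1 ischemic array.

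Glycolysis splits glucose into pyruvate and yields ATP without oxygen. Lactate dehydrogenase then turns pyruvate into lactate, which monocarboxylate transporters carry out of the cell, while in mitochondria pyruvate dehydrogenase oxidizes pyruvate to acetyl-CoA. The pentose phosphate pathway branches off at glucose phosphate and supplies NADPH and ribose. Many glycolytic genes are known targets of the hypoxia-inducible factors, and activated macrophages are known to draw heavily on glycolysis.

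After ischemia, 18 of the 34 measured members rose (52.9%) and 1 fell (2.94%, *Pdk2*). Among all genes tested 16.8% rose and 5.99% fell. The remaining 15 members did not pass the test, 8 of them with an adjusted p under 0.05. The median log2 fold change of the members was 1.01, between -2.12 for *Pdk4* (-1.37 without control rat 69) and 3.00 for *Eno2*, and that of all genes tested was 0.10. The enolases *Eno2* and *Eno1*, the lactate carrier *Slc16a1* and the lactate dehydrogenase *Ldha* rose by more than 2 on the log2 scale. These were 4 of 34 members (11.8%, against 1.63% of all genes), and no member fell by as much (0.584% of all genes). In 23 members (67.6%) every ischemic rat lay above every control, in 4 (11.8%) every ischemic rat lay below, and in 7 the groups overlapped. These shares were 35.7% and 19.9% over all genes tested. The split depended on the scaling: with arrays centred on 42 ribosomal protein genes, 7 members rose (*Pfkl*, *Tpi1*, *Gapdh*, *Pgk1*, *Eno1*, *Eno2* and *Ldha*) and 4 fell (*Pfkm*, *Pfkfb4*, *Pdk2* and *Pdk4*), and 11.9% of the calls over all genes were higher, against 73.7% as deposited. After quantile normalization was repeated this share was 59.9%, and 15 members rose and 1 fell.

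Counts of risen members differed between parts of the pathway, beside 16.8% of all genes tested that rose. All 5 measured members between glyceraldehyde phosphate and pyruvate rose, with a median of 1.47. *Pkm*, whose enzyme forms the pyruvate, has no value. Of the 9 measured members that lead from hexokinase to the triose phosphates 4 rose (median 0.97). These counts depend on which forms of each step are on the list. Among the 9, *Hk2*, *Pfkm*, *Pfkp* and *Aldoc* did not rise while another form of the same step did. Outside the members, *Pgam2*, a further form of the mutase step, fell, and the enolase form *Eno3* did not pass the test. Of the 5 measured pentose phosphate members 4 rose (median 1.17). Glucose and lactate transport were split between carriers, and the genes around pyruvate dehydrogenase moved in both directions.

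**Figure D1:**
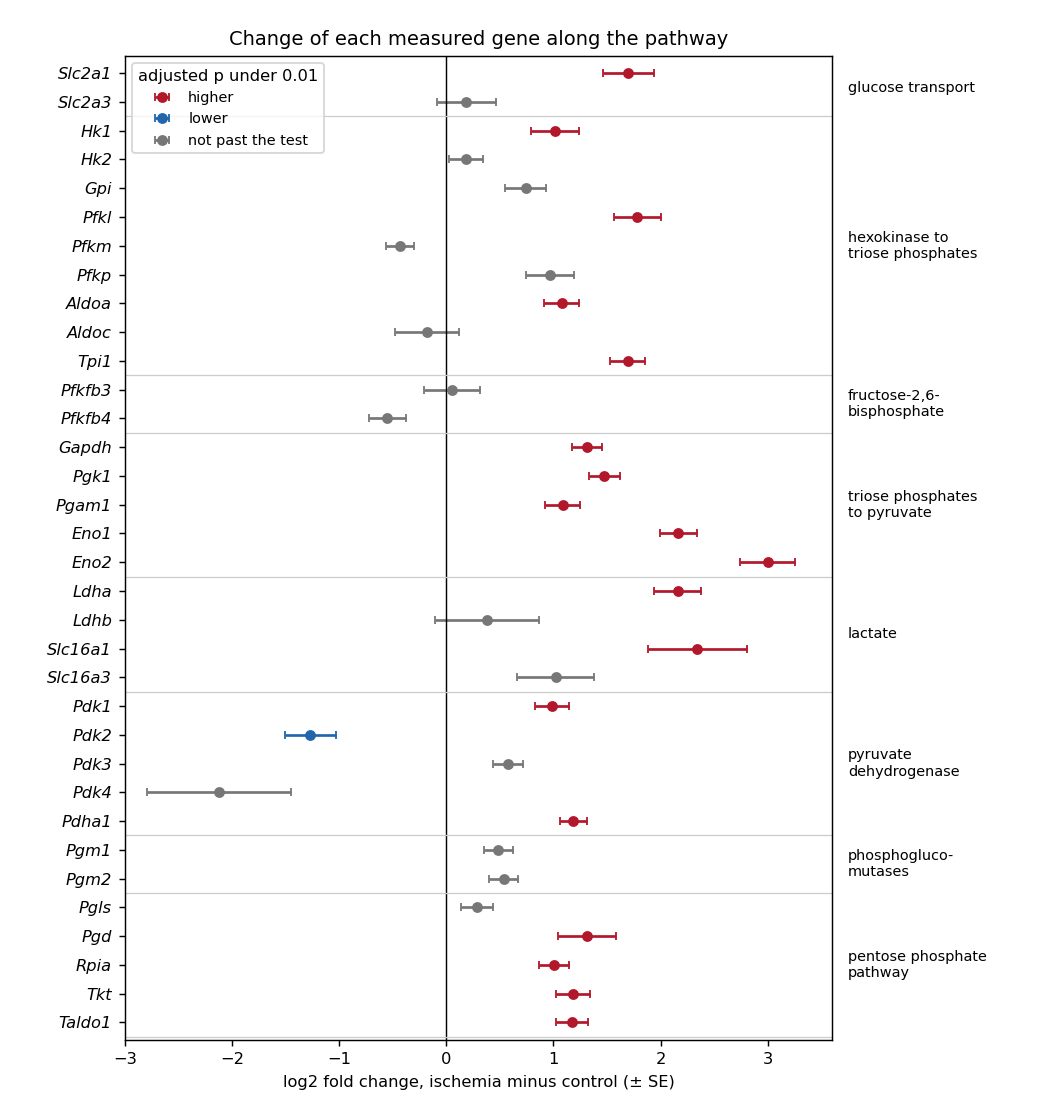
Log2 fold change (ischemia minus control, 3 rats each) of the 34 measured genes in pathway order, with bars of 1 standard error; red marks genes that rose, blue the gene that fell and grey those not past the test. Every gene from Gapdh to Eno2 lies right of 1, whereas Pfkm, Pfkfb4, Pdk2 and Pdk4 lie left of 0.

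Array medians were alike (7.82 to 7.90), but control rat 63 stood apart. Its highest signal was 13.85, against 14.88 to 14.96 on the other 5 arrays. Its means over the vascular and astrocyte marker lists were also the highest. Over 7 measured endothelial markers its mean signal was 10.01, against 8.19 to 8.63 in ischemic rats and 7.75 and 8.12 in the other controls. Single markers varied: *Cldn5*, *Kdr* and *Slco1a4* were highest in rat 63, *Flt1* and *Tie1* in ischemic rat 65 and *Esam* in control rat 68. *Pecam1* was 9.53 in both rat 63 and ischemic rat 66. The mural marker *Cspg4* and the astrocyte marker *Gfap* were higher in every ischemic rat than in rat 63. For 6 mural cell markers its mean was 7.88, against 7.05 to 7.13 in ischemic rats and 6.69 and 6.74 in the other controls, and for 5 astrocyte markers it was 9.87, against 8.75 to 9.19 in ischemic rats and 8.27 and 7.92 in the other controls. Its macrophage marker mean was the lowest of the 6 rats, at 12.37, against 12.75 to 13.17 in ischemic rats and 13.17 and 13.02 in the other controls, and its oligodendrocyte mean was the highest, at 10.83, against 8.37 to 9.06 in ischemic rats and 10.03 and 9.56 in the other controls. Results in which this rat decides are given with and without it.

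The sorted cells carried the markers of their label, as the mean over 8 macrophage markers was 12.75 to 13.17 in ischemic rats and 12.37 to 13.17 in controls, and of the 8 only *Itgam*, which encodes CD11b, rose. Marker lists of other cells also moved with ischemia. The mean of 8 measured granulocyte markers was 7.56 to 8.52 in ischemic rats and 6.31 to 6.54 in controls, and *Camp* and *Mmp8* were below background in all 6 rats. Of 6 granulocyte markers tested 3 rose (*S100a8*, *Lcn2* and *Mmp9*), each of which had passed the low-signal filter through the ischemic arrays alone. *S100a9* and *Csf3r* lay higher in every ischemic rat without passing the test. *Cxcr2*, above background in all 6 rats, had overlapping groups and a difference below 0 (-0.50, adjusted p = 0.179). The mean of 5 monocyte markers was 10.87 to 11.91 after ischemia and 8.64 to 9.53 in controls. Of these 4 rose, among them *Chi3l1*, which passed the filter through the ischemic arrays alone. *Ccr2* had overlapping groups and did not pass the test (0.43, adjusted p = 0.311). The mean of 5 oligodendrocyte markers was 8.37 to 9.06 after ischemia and 9.56 to 10.83 in controls, with 2 fallen. Microglial markers spanned 10.01 to 11.01 in ischemic rats and 10.86 to 11.06 in controls (1 of 5 fell), and lymphocyte markers 6.52 to 6.82 in ischemic rats and 6.27 to 6.36 in controls (1 of 2 tested rose, and 3 of the 5 measured were below background in all rats). Erythrocyte markers (3 measured) spanned 6.39 to 6.67 after ischemia and 6.52 to 6.79 in controls, and the 1 tested, *Hbb*, did not pass. Neuronal markers (7 measured) spanned 6.46 to 6.77 in ischemic rats and 6.68 to 6.85 in controls, with none of the 3 tested past the threshold. *Syt1*, *Nefl* and *Nefm* were below background in all rats, and *Tubb3* and *Rbfox3* were above it in all. None of the 5 endothelial genes tested passed the test, and 1 of the 3 mural and 1 of the 5 astrocyte genes tested rose. The part of other cells in the changes described here was not tested.

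**Figure D2:**
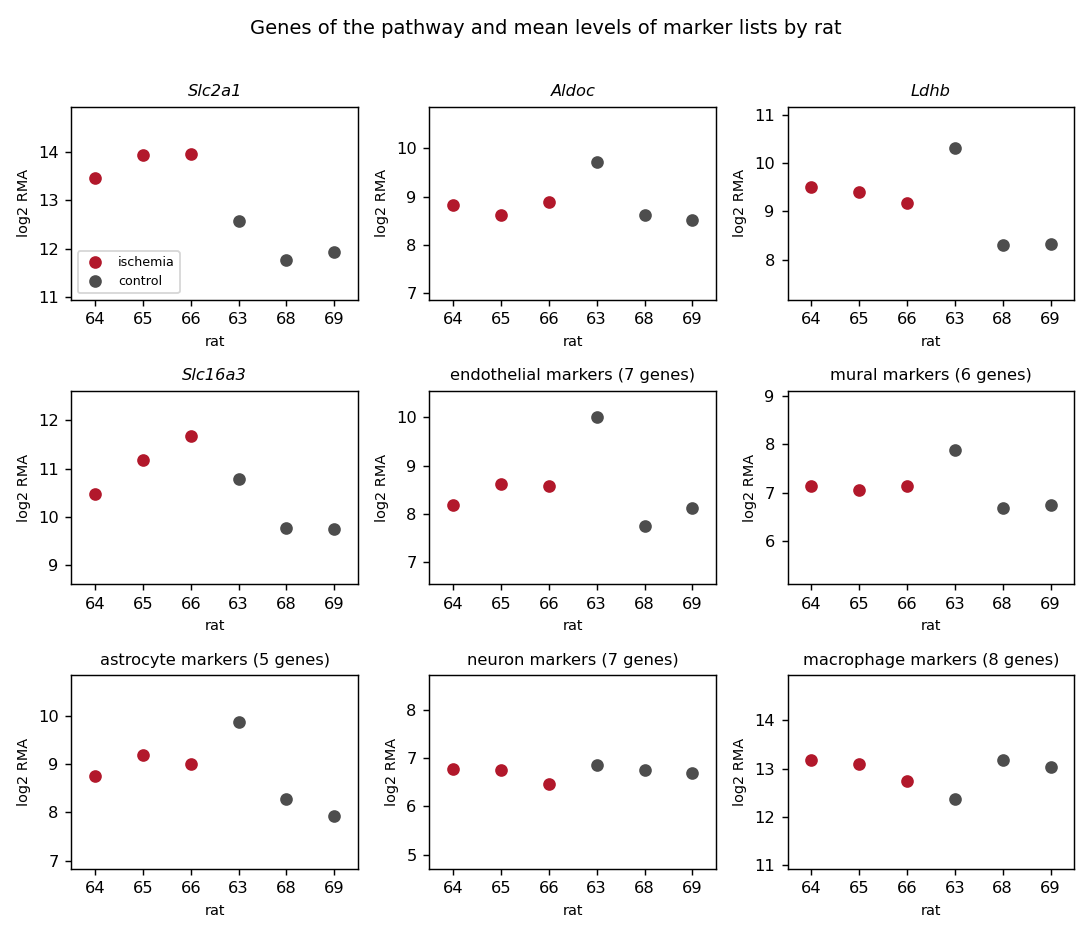
Log2 RMA signal in each rat of 4 pathway genes and mean log2 RMA signal of 5 marker lists, ischemic rats left (red) and controls right (grey). Control rat 63 is the highest control for Slc2a1, Aldoc, Ldhb and Slc16a3 and for the endothelial, mural and astrocyte lists.

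Glucose enters these cells through facilitative transporters, of which *Slc2a1* (GLUT1) is the widespread form and *Slc2a3* (GLUT3) a high-affinity form. *Slc2a1* had signals of 13.46, 13.94 and 13.96 in ischemic rats, against 12.57, 11.77 and 11.93 in controls. The groups did not overlap, and *Slc2a1* rose by 1.70 ± 0.24 (log2, SE, adjusted p = 0.0014), or 3.25-fold. *Slc2a1* is also abundant in brain endothelium, and its highest control was rat 63, the rat with the highest endothelial marker mean. Without rat 63 the difference was 1.94. *Slc2a3* had 8.35, 9.39 and 8.77 in ischemic rats and 8.94, 8.28 and 8.73 in controls, with overlapping groups and a difference of 0.19 ± 0.28 (SE, adjusted p = 0.61).

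Hexokinases trap glucose in the cell as glucose phosphate. *Hk1* had signals of 9.92, 9.72 and 9.46 in ischemic rats and 8.56, 8.36 and 9.14 in controls, a rise of 1.01 ± 0.22 (SE, adjusted p = 0.00827). This call was close to the threshold and was lost without any 1 of 5 rats: the adjusted p was 0.0203 without ischemic rat 64, 0.0301 without 65, 0.0136 without 66, 0.0313 without control rat 63 and 0.029 without 68. Further probe sets of *Hk1*, adjusted over all probe sets fitted, differed in size. One gave 1.12 (adjusted p = 0.00163) and the array's 3′ control probe set 0.85 (0.0037). The control probe sets for the middle and the 5′ part gave 0.58 (0.0245) and 0.61 (0.0159). The inducible *Hk2* showed 9.28, 9.47 and 9.42 after ischemia and 8.99, 9.48 and 9.14 in controls, and did not pass the test (0.19 ± 0.16, SE, adjusted p = 0.372). Glucose phosphate isomerase, *Gpi*, the next step, had every ischemic rat (11.35, 11.44 and 11.93) above every control (10.58, 11.01 and 10.91), yet its adjusted p of 0.0167 missed the threshold at a difference of 0.74.

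Phosphofructokinase is the committed and most regulated step of glycolysis, and its 3 isoenzymes differed in their change. The liver type *Pfkl* had 10.54, 10.60 and 11.00 in ischemic rats, against 8.50, 9.22 and 9.07 in controls, and rose by 1.78 ± 0.22 (SE, adjusted p = 0.000899), or 3.44-fold. The platelet type *Pfkp* had 10.89, 10.62 and 11.07 in ischemic rats and 10.26, 9.42 and 10.001 in controls. Its groups did not overlap, and its difference of 0.97 ± 0.23 (SE) had an adjusted p of 0.0113. The muscle type *Pfkm* lay on the other side of 0, at 8.36, 8.38 and 8.26 in ischemic rats and 8.85, 8.57 and 8.87 in controls (-0.43 ± 0.13, SE, adjusted p = 0.0337). A further probe set of *Pfkm*, dimmer on average, gave 7.33, 6.94 and 6.83 in ischemic rats and 8.29, 8.38 and 8.24 in controls, a difference of -1.27 with an adjusted p of 0.00103 over all probe sets fitted. Another *Pfkm* probe set gave -0.22 with overlapping groups, so the 3 had the same sign and differed in size.

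*Pfkfb3* and *Pfkfb4* encode bifunctional enzymes that make and break down a fructose bisphosphate outside the main pathway, the strongest activator of phosphofructokinase. Neither passed the test. *Pfkfb3*, the form with the higher kinase activity, had 12.10, 11.51 and 11.99 in ischemic rats and 11.45, 11.64 and 12.36 in controls, a difference of 0.05 ± 0.26 (SE). *Pfkfb4* had 8.90, 9.16 and 9.48 in ischemic rats and 9.63, 9.67 and 9.89 in controls, so every ischemic rat lay below every control (-0.55 ± 0.17, SE, adjusted p = 0.0346).

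Aldolase cleaves the hexose into triose phosphates, and triose phosphate isomerase interconverts these. *Aldoa*, the form of most tissues, had signals of 13.40, 13.49 and 13.68 in ischemic rats and 12.15, 12.63 and 12.57 in controls and rose by 1.08 ± 0.17 (SE, adjusted p = 0.00205). *Aldoc*, a form known from astrocytes, had 8.82, 8.62 and 8.89 in ischemic rats and 9.72, 8.63 and 8.51 in controls. Its high value belonged to control rat 63, and the difference was -0.18 with this rat and 0.21 without it (adjusted p = 0.659 and 0.265). *Tpi1* had 12.47, 12.67 and 12.89 in ischemic rats against 10.84, 10.90 and 11.22 in controls, a rise of 1.69 ± 0.16 (SE, adjusted p = 0.000449), or 3.23-fold.

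The energy-yielding phase of glycolysis begins with glyceraldehyde phosphate dehydrogenase. *Gapdh* could be read only from the array's own control probe sets for the rat gene, of which the 3′ one was used, and had 14.40, 14.51 and 14.55 in ischemic rats and 12.96, 13.22 and 13.34 in controls. It rose by 1.31 ± 0.14 (SE, adjusted p = 0.000598), or 2.49-fold, although it is widely used as a reference gene. The control probe sets for the middle and the 5′ part of its transcript gave 1.53 and 1.13. The 3′ signal exceeded the 5′ signal by 0.797, 0.776 and 0.750 in ischemic rats and by 0.651, 0.520 and 0.611 in controls, and the part of this difference in transcript coverage in the results was not tested.

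*Pgk1*, the first of the ATP-forming kinases of the pathway, had 13.60, 13.86 and 13.86 in ischemic rats against 12.10, 12.33 and 12.46 in controls, and rose by 1.47 ± 0.15 (SE, adjusted p = 0.000467). Phosphoglycerate mutase, *Pgam1*, had 12.76, 13.28 and 13.25 in ischemic rats and 11.96, 12.03 and 12.04 in controls and rose by 1.09 ± 0.16 (SE, adjusted p = 0.00197). Rat 64 was the lowest of the 3 ischemic rats for both. The *Pgam1* call was lost without ischemic rat 65, at an adjusted p of 0.0108.

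Enolase forms phosphoenolpyruvate, and both of its forms among the members rose. A further form outside the members, *Eno3*, had overlapping groups and did not pass the test (-0.23, adjusted p = 0.228). *Eno3* was named after its values were seen. *Eno1*, the general form, had 12.98, 13.29 and 13.61 in ischemic rats and 11.09, 11.15 and 11.14 in controls, a rise of 2.17 ± 0.17 (SE, adjusted p = 0.000238), or 4.49-fold. *Eno2*, which is named neuron-specific enolase but is not expressed in neurons alone, had 10.32, 11.12 and 11.18 in ischemic rats and 7.60, 7.80 and 8.23 in controls. Its rise of 3.00 ± 0.26 (SE, adjusted p = 0.000312), or 7.99-fold, was the largest among the members and ranked 61 among the 9929 genes by size of change. The control values of *Eno2* were near background, while those of *Eno1* were far above it. Of 7 neuronal markers 3 were tested and none passed the test. *Tubb3* had 7.73, 7.46 and 7.27 in ischemic rats and 7.78, 7.96 and 7.76 in controls, *Rbfox3* was also above background in all rats, and *Syt1*, *Nefl* and *Nefm* were below it in all. The part of neuronal RNA in the *Eno2* signal was not tested.

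**Figure D3:**
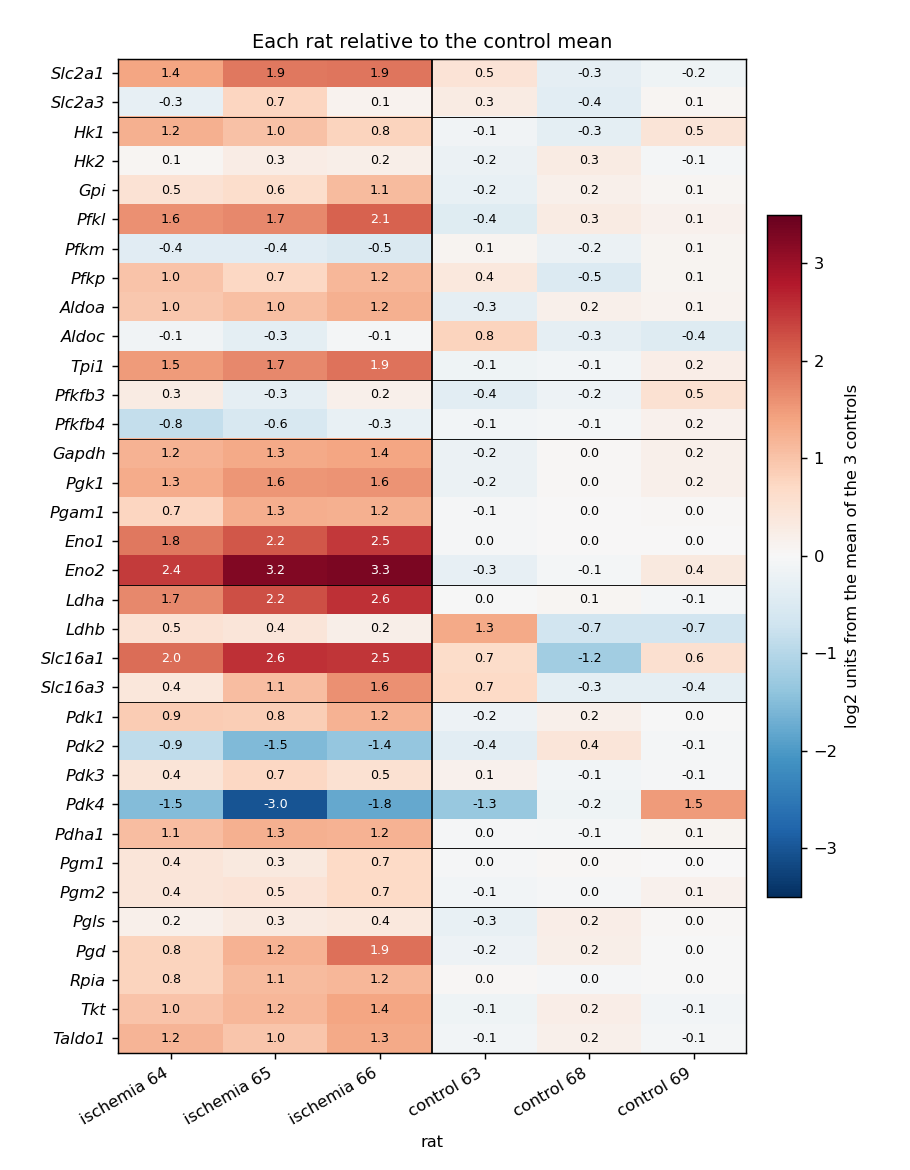
Difference of each rat from the mean of the 3 controls, in log2 units, for the 34 measured genes in pathway order, with ischemic rats in the left columns and controls in the right ones. The 3 ischemic rats are positive from Gapdh to Ldha, and control rat 63 is high in Ldhb, Aldoc and Slc16a3.

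Lactate formation and export followed the same direction in part. *Ldha*, whose subunit favours the conversion of pyruvate into lactate, had 13.01, 13.58 and 13.90 in ischemic rats, against 11.33, 11.42 and 11.25 in controls. It rose by 2.16 ± 0.22 (SE, adjusted p = 0.000473), or 4.47-fold. *Ldhb*, the subunit of oxidative tissues, had 9.49, 9.40 and 9.18 in ischemic rats and 10.31, 8.30 and 8.31 in controls. Its groups overlapped through control rat 63 alone. With all rats the difference of *Ldhb* was 0.38 ± 0.49 (SE, adjusted p = 0.556), and without rat 63 it was 1.05 with an adjusted p of 0.0043. Without control rat 68 or 69 it was 0.05.

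The monocarboxylate transporter *Slc16a1* (MCT1), which moves lactate in both directions, had 11.20, 11.82 and 11.75 in ischemic rats and 9.90, 8.04 and 9.81 in controls. It rose by 2.34 ± 0.46 (SE, adjusted p = 0.00554), or 5.07-fold. Control rat 68 was far below the other 2 controls, and the call was lost without ischemic rat 65 (adjusted p = 0.0211), ischemic rat 66 (0.0181) or control rat 63 (0.0103). *Slc16a3* (MCT4), the exporter of strongly glycolytic cells, had 10.49, 11.19 and 11.69 in ischemic rats and 10.79, 9.77 and 9.74 in controls. It did not pass the test with all rats (1.02 ± 0.36, SE, adjusted p = 0.053) or without the high control rat 63 (1.37, adjusted p = 0.0216).

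Promoter sequences were read for members from RefSeq (rat assembly GRCr8), as windows of 300 bases, 250 before and 50 after the annotated start. They are shown for the 3 members with 1 annotated start that rose by more than 2 on the log2 scale and for the member that fell. Capitals mark matches to ACGTG or GCGTG on either strand, the core letters of hypoxia response elements. ACGTG is also part of the E-box CACGTG, a palindrome that counts as 2 overlapping matches. The *Ldha* window at chr1:106507842-106508141 (plus strand) held 6 matches, that of *Slc16a1* at chr2:194812410-194812709 (plus strand) 4, that of *Eno2* at chr4:159267171-159267470 (minus strand) 1 and that of *Pdk2* at chr10:80483863-80484162 (minus strand) 2, each printed 5′ to 3′ in the direction of transcription.
Ldha: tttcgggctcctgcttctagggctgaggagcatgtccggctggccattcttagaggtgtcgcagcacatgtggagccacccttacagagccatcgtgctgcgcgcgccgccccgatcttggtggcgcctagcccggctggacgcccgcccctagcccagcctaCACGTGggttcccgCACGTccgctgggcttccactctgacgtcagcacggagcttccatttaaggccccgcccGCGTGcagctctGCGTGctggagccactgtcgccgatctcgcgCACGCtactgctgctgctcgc
Slc16a1: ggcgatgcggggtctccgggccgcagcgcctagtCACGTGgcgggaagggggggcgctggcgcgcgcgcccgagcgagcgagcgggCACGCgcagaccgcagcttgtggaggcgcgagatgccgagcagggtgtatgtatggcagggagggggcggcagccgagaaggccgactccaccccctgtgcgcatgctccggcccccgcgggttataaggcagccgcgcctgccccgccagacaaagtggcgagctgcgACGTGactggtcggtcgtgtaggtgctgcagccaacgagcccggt
Eno2: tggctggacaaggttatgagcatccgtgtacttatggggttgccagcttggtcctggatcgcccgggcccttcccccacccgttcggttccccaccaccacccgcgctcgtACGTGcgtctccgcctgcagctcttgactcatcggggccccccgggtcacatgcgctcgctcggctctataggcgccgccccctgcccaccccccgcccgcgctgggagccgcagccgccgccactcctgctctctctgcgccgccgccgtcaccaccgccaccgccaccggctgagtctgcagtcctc
Pdk2: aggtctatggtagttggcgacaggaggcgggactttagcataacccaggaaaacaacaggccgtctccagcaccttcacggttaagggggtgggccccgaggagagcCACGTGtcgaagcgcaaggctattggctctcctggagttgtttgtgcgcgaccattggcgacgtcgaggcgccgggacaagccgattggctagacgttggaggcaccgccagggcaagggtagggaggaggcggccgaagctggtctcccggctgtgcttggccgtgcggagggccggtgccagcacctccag

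At least 1 such match lay in the windows of 24 of the 33 members that had a window (72.7%) and of 12253 of 27457 genes (44.6%). The members' windows were richer in G and C, with a median of 61.7% against 52.7% over all genes. Of the members that rose 13 of 17 had a match (76.5%), and of those that did not pass the test 9 of 13 (69.2%), and *Pdk2*, which fell, had the palindrome. *Tpi1*, *Tkt*, *Pgd* and *Rpia* rose and their windows held none of these letters. A match is a description of the sequence and no evidence of a bound factor.

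Pyruvate dehydrogenase kinases inactivate the mitochondrial complex that converts pyruvate into acetyl-CoA, and the 4 kinases differed in direction. *Pdk1* had 10.11, 10.07 and 10.45 in ischemic rats and 9.05, 9.40 and 9.21 in controls and rose by 0.99 ± 0.16 (SE, adjusted p = 0.00241). *Pdk3* had 10.11, 10.39 and 10.20 in ischemic rats and 9.81, 9.56 and 9.61 in controls, without overlap (0.57 ± 0.14, SE, adjusted p = 0.0123). *Pdk2*, the kinase of most tissues, was the member that fell, with 7.95, 7.31 and 7.49 in ischemic rats against 8.49, 9.28 and 8.80 in controls.

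*Pdk2* fell by 1.27 ± 0.24 on the log2 scale (SE, adjusted p = 0.00454), to signals just above background. The call was lost without ischemic rat 65 (adjusted p = 0.0201), ischemic rat 66 (0.0168), control rat 68 (0.0144) or control rat 69 (0.0147). *Pdk4*, a kinase known to respond to fasting and fatty acids, had 7.38, 5.87 and 7.11 in ischemic rats, 2 of these below background, and 7.58, 8.75 and 10.39 in controls. Its controls were widely spread, and the difference of -2.12 ± 0.67 (SE) did not pass the test (adjusted p = 0.0359). Without control rat 69 it was -1.37 (adjusted p = 0.0741).

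*Pdha1*, a catalytic subunit of the complex that these kinases act on, rose as well. It had 11.69, 11.86 and 11.82 in ischemic rats and 10.57, 10.54 and 10.70 in controls, with a spread of 0.08 (SD) in either group and a rise of 1.19 ± 0.12 (SE, adjusted p = 0.000526). A further probe set of *Pdha1* gave 1.16 and one of *Pdk1* gave 1.21, each past the same threshold.

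In the pentose phosphate pathway, 4 of the 5 measured members rose, from both branches, and *Pgls* did not pass the test. Phosphogluconate dehydrogenase, *Pgd*, which forms NADPH in the oxidative branch, had 10.67, 11.11 and 11.80 in ischemic rats and 9.71, 10.08 and 9.86 in controls, a rise of 1.31 ± 0.27 (SE, adjusted p = 0.00644). The *Pgd* call was lost without ischemic rat 65 (adjusted p = 0.0203) or control rat 63 (0.0272), 68 (0.0179) or 69 (0.0221). The lactonase *Pgls*, the step before it, had 7.95, 8.08 and 8.14 in ischemic rats and 7.52, 7.99 and 7.80 in controls (0.29 ± 0.15, SE, adjusted p = 0.167).

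The non-oxidative branch links ribose phosphate back to glycolysis. *Rpia*, the ribose phosphate isomerase, had 11.49, 11.81 and 11.87 in ischemic rats and 10.76, 10.68 and 10.71 in controls and rose by 1.01 ± 0.14 (SE, adjusted p = 0.00143). A dimmer probe set of *Rpia* gave 0.18 with overlapping groups. Transketolase, *Tkt*, had 12.56, 12.73 and 12.94 in ischemic rats against 11.43, 11.80 and 11.47 in controls (1.18 ± 0.16, SE, adjusted p = 0.00129), and transaldolase, *Taldo1*, had 12.76, 12.53 and 12.90 in ischemic rats against 11.46, 11.74 and 11.48 in controls (1.17 ± 0.15, SE, adjusted p = 0.00109). The sizes of the *Tkt* and *Taldo1* changes lay within 1 SE of each other.

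The phosphoglucomutase genes were placed at the phosphates of glucose, which connect with glycogen, and of ribose. *Pgm1* averaged 9.94 ± 0.18 in ischemic rats and 9.46 ± 0.05 in controls (SD, n = 3 each), and *Pgm2* averaged 11.48 ± 0.14 in ischemic rats and 10.95 ± 0.13 in controls (SD, n = 3 each). In both every ischemic rat lay above every control, and neither passed the test (limma, adjusted p = 0.0227 for *Pgm1* and 0.0162 for *Pgm2*). With arrays centred on ribosomal protein genes instead, both differences lay below 0.

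Isoenzymes of a step were set against each other within each rat, as the difference of their log2 signals, and this difference was compared between groups in 13 pairs. Because each probe set has its own brightness, only the change of the difference is read, never which form is more abundant. In 9 pairs the groups did not overlap. No such share was computed over other pairs of genes. Among single genes tested, 35.7% had every ischemic rat above every control and 19.9% every ischemic rat below. The pairs are not independent, as *Pdk2* and *Pfkm* each enter several. The exact two-sided permutation test over 3 against 3 rats cannot give a p below 0.1, and these 9 pairs had p = 0.1 (0.144 after Benjamini-Hochberg adjustment over the 13 pairs), so none could pass a threshold of 0.05.

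*Pdk1* minus *Pdk2* was 2.16, 2.75 and 2.96 in ischemic rats and 0.55, 0.12 and 0.41 in controls, a gap of 2.26 between groups. *Pdk3* minus *Pdk2* was higher by 1.84 after ischemia, whereas *Pdk4* minus *Pdk2* differed by -0.85 with overlapping groups (exact p = 0.5). That last value rested on single rats: it was -0.07 without control rat 69, -0.53 without ischemic rat 65 and -1.33 without control rat 63. For phosphofructokinase, *Pfkl* minus *Pfkm* was 2.18, 2.22 and 2.74 in ischemic rats and -0.35, 0.65 and 0.20 in controls, a gap of 2.21, and *Pfkp* minus *Pfkm* was higher by 1.40. *Eno2* minus *Eno1* was higher by 0.83, at -2.65, -2.17 and -2.43 in ischemic rats and -3.49, -3.35 and -2.91 in controls.

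The pairs on the other side of 0 were *Slc2a3* minus *Slc2a1* (-1.51), *Hk2* minus *Hk1* (-0.83, and -0.52 without control rat 68), *Aldoc* minus *Aldoa* (-1.25, and -0.72 without control rat 63) and *Ldhb* minus *Ldha* (-1.78, and -1.11 without control rat 63). In each of these the form named first did not pass the test on its own, and the form named second rose. *Ldhb* minus *Ldha* was -3.51, -4.18 and -4.72 in ischemic rats and -1.02, -3.11 and -2.94 in controls. *Pfkfb4* minus *Pfkfb3* (-0.60, and -0.34 without ischemic rat 64) and *Slc16a3* minus *Slc16a1* (-1.32) had overlapping groups (exact p = 0.2 each), and *Pgm2* minus *Pgm1* differed by 0.05 (exact p = 0.5).

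**Figure D4:**
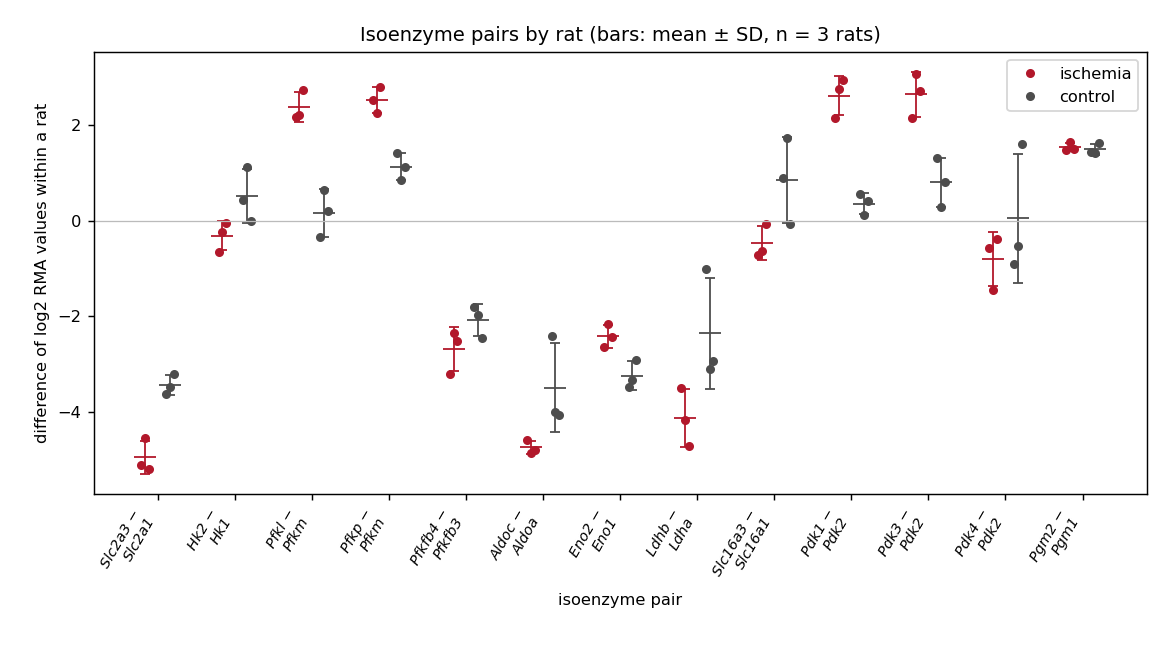
Difference of the log2 RMA signals of 13 isoenzyme pairs within each rat, with ischemic rats left (red) and controls right (grey) of each pair; horizontal bars are means and vertical bars 1 SD of 3 rats. The groups separate in 9 pairs, by most in Pdk1 minus Pdk2 (2.26) and Pfkl minus Pfkm (2.21).

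The ischemic rats differed among themselves. Relative to the control mean, the median of the members was 0.78, 1.004 and 1.19 in ischemic rats 64, 65 and 66, and it was -0.10, -0.04 and 0.05 in control rats 63, 68 and 69. Rat 64 was the lowest ischemic rat in 15 of the 18 members that rose (83.3%), against 76.6% of all genes that rose. Rat 66 was the highest in 14 of the 18, and the share of all risen genes highest in rat 66 was not computed. Control rat 63 was the lowest control in 12 of the 18 (66.7%, against 57.2% of all genes that rose).

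Around the core pathway, 54 further genes of glucose, glycogen and pyruvate handling were listed, of which 44 were measured and 39 tested. Among these 10 rose (25.6%, against 16.8% of all genes) and 3 fell (7.69%, against 5.99%), with a median of 0.29 against 0.10 over all genes. *Rpe*, the ribulose phosphate epimerase of the non-oxidative pentose phosphate branch, had overlapping groups (-0.14, adjusted p = 0.441), and the mitochondrial pyruvate carrier genes *Mpc1* (0.15) and *Mpc2* (0.30) did not pass the test; these 3 were named after their values were seen. Malic enzyme, *Me1*, which forms NADPH and pyruvate from malate, had 8.17, 9.99 and 10.04 in ischemic rats and 7.12, 6.50 and 5.81, all below background, in controls, and rose (adjusted p = 0.0037). With the controls set to the background level, *Me1* was at least 4.45-fold higher in ischemic rats, and it had passed the low-signal filter through the ischemic arrays alone. The *Me1* call was lost without ischemic rat 65 (adjusted p = 0.0144) or 66 (0.0122) or control rat 68 (0.0168) or 69 (0.0138).

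The reticular pentose phosphate enzyme *H6pd* had 8.94, 9.10 and 9.28 in ischemic rats and 7.21, 7.42 and 7.34 in controls, a rise of 1.78. *Pygl*, a glycogen phosphorylase, rose by 1.51 and the phosphatase *Minpp1* by 1.15. Among the genes that fell, the lactate and pyruvate carrier *Slc16a7* (MCT2) had 10.60, 9.95 and 9.64 in ischemic rats and 11.55, 12.04 and 12.20 in controls and fell by 1.87, opposite in direction to *Slc16a1*. The mutarotase *Galm* fell by 1.65 and *Pgam2*, the muscle form of phosphoglycerate mutase, by 1.08, while *Pgam1* rose. The number of listed genes that rose was 3 without ischemic rat 65 and 6 without ischemic rat 66. Over all genes tested, 1665 rose with all rats, 688 without ischemic rat 65 and 819 without ischemic rat 66.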

How the data were processed

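CD11b+CD163+ cells of 6 rats were profiled on Affymetrix rat whole-genome GeneChip arrays, 1 rat per array. The deposited values are log2 signals of 31099 probe sets, which the authors made from the scans with RMA (background correction, quantile normalization, summary) after quality control in Expression Console, and the submitters' notes name limma 3.18 and R 3.3.1. Values are therefore relative between arrays, and the upper end of control rat 63 still lay below that of the others. The deposited values were not filtered. An array gives no read depth, and the number of rats limits the precision.

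Of the probe sets, 20832 name 1 gene, 436 several and 9831 none, and 20764 of the single-gene ones were found in RefSeq with 0 changed symbols. Genes above 7.16 (the 40th percentile of values) on 3 or more arrays were tested with lmFit and eBayes of limma 3.58.1 in R 4.3.3, and adjusted over 9929 genes. The methods' low-variability filter was an alternative. Further probe sets of a member were fitted together with all probe sets. Isoenzyme pairs were compared by exact permutation over rats. Members and lists (the wider list, cell markers) were chosen with earlier results of these data known. Every member is named. Of the wider list up to 4 genes with the largest change past the test in each direction are named. Others of that list are marked as named after their values were seen. Tested on simulated data of 9929 genes, the fit called 42 of 67 genes with a simulated log2 change of 1. It called 67 of 67 with a change of 2 and 66 of 66 with 4, with 6 false calls among 9729 unchanged genes. Far fewer genes changed in the simulation than were called in the data (1665 higher and 595 lower). These rates therefore describe the simulation and cannot be carried over to the data.

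Alternatives covered the filter, probe set, scaling, moderation, array weights, thresholds and leaving out each rat.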

Additional observations from a re-analysis of the deposited data

How the results depend on the processing

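No paired analysis was possible because the groups share no rat number. No member's call turned direction in any alternative, and Eno1, Eno2, Gapdh, Ldha, Pfkl, Pgk1 and Tpi1 (7 of the 19 called members) kept their call at an adjusted p under 0.01 in each alternative fit but that without moderation. Of these 7, *Eno1*, *Eno2* and *Ldha* also passed a log2 fold change beyond 2, and the others did not. With arrays centred on 42 ribosomal protein genes, which themselves had a median log2 fold change of 0.40 as deposited, the median of all genes was -0.47, 324 genes rose and 2393 fell (11.9% of calls higher, against 73.7%), the members' median was 0.44, 7 members rose and 4 fell (*Pfkm*, *Pfkfb4*, *Pdk2*, *Pdk4*), and of the wider list 2 rose and 6 fell. Repeated quantile normalization gave 1391 higher and 930 lower genes (59.9%). Without moderation 0 genes of any kind were called, at a lowest adjusted p of 0.0101, and 4479 had an unadjusted p under 0.05. Of the members, 4 rose and 0 fell beyond 2, and of the wider list 1 rose and 0 fell, whereas 6 of the wider list rose beyond 1. The number of members that fell was 0 under a 60th percentile filter, 2 with the mean of all probe sets or the probe set of largest interquartile range, 3 with array weights and 4 at an adjusted p under 0.05. With array weights 5 of the wider list fell. Array weights raised the calls over all genes to 2375 higher and 1309 lower.

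Leaving out each rat in turn gave 14 to 17 members that rose, 0 to 1 that fell, a median of 0.90 to 1.08, and 3 to 10 risen and 3 to 4 fallen genes of the wider list. Over all genes it gave 688 to 1566 risen and 169 to 816 fallen. Besides the losses given with each gene, *Hk1*, *Slc16a1* and *Pgd* were not called without the low-signal filter or after repeated quantile normalization, *Slc16a1* was not called by robust eBayes (adjusted p = 0.0123) and *Rpia* was not called with the mean of its probe sets (0.0121). *Pfkl* minus *Pfkm* was 3.05 and *Pfkp* minus *Pfkm* 2.24 with the probe set of largest interquartile range, and *Slc16a3* minus *Slc16a1* was -0.20 with the mean of all probe sets. Where a value shows no cause for such a difference, the cause was not tested.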
